A study of Mus musculus with 4 samples.

Results

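The Wnt ligands, their receptors and the proteins that modulate them outside the cell were followed in RNA-seq of mouse embryonic stem cells (mESCs) with and without Haspin, a kinase of histone H3. The genes were taken by symbol alone from the deposited gene table. They were the Wnt, Fzd, Dkk, Sfrp and Rspo families, Lgr4 to Lgr6, Ror1, Ror2, Lrp5, Lrp6, Ryk, Porcn, Wls, Wif1, Frzb, Znrf3 and Rnf43. Antisense genes with such names (2 rows) were left out, and 55 of the 55401 genes in the table remained. The rule used no measured value, although earlier results of these data were known when it was set.

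Wnt proteins are lipid-modified secreted ligands that act mostly on neighboring cells. Porcupine (Porcn) adds the lipid and Wntless (Wls) carries the ligand to the surface, where it binds a Frizzled receptor. With Lrp5 or Lrp6 as co-receptor the signal stabilizes β-catenin, whereas Ror2, Ryk and the planar cell polarity machinery carry β-catenin-independent signals such as those of Wnt5a. Secreted Sfrp and Dkk proteins block ligands or co-receptors, and R-spondins acting through Lgr4 to Lgr6 protect Frizzled receptors from the ubiquitin ligases Znrf3 and Rnf43. In mESCs, β-catenin signaling is known to favor self-renewal.

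All cells were of the E14 line, and all were grown with serum, LIF and 2i, the pair of inhibitors PD0325901 and CHIR99021. CHIR99021 inhibits GSK3 and so activates β-catenin signaling below the receptors in every group. The WT group was unedited, and the Haspin-KO group came from lines made by CRISPR/Cas9 with a pair of guides and picked for loss of the histone H3 threonine 3 phosphorylation that Haspin places. Each group had 2 libraries. It is not stated from which Haspin-KO line a library was made, whether the libraries of a group were separate cultures, or whether cells for RNA grew on the mitomycin-treated mouse embryonic fibroblasts that the study's methods give for passage or on the gelatin they give for assays. P-values therefore measure only the spread between these libraries.

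Library totals ranged from 14207828 to 21834847 counts, and edgeR's low-count filter kept 15580 genes for testing. A gene with at most 3 counts in a library was taken as at the floor, which was 0.137 and 0.173 CPM (counts scaled to library size) in WT and 0.209 and 0.210 CPM in Haspin-KO. This floor covers counting error only. All CPM values are on edgeR's TMM scale, and levels of different genes were ordered only by the deposited FPKM, which divides by gene length. Haspin itself had 875 and 619 counts in WT and 149 and 209 counts in Haspin-KO. Its log2 fold change was -1.60 (adjusted p = 0.00154, edgeR's quasi-likelihood test). The listed mESC markers, 10 of 10, were above the floor in every library and 0 were called by edgeR or DESeq2. At an unadjusted p under 0.05, 0 of the 10 were higher and 3 lower in edgeR, with 10.4% of all genes tested in each direction. The log2 fold change was below 0 for 8 of the 10 markers, with a median of -0.12.

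A gene was called where its adjusted p was under 0.05 and its fold change over 2. Of all genes tested, 0.327% were called higher and 0.501% lower in Haspin-KO cells. Of the 55 Wnt genes, 39 were tested, 0 were called higher and 1, Wnt5a, was called lower. At an unadjusted p under 0.05, edgeR gave 1 Wnt gene higher (Fzd7) and 5 lower (Wnt5a, Fzd10, Lrp5, Porcn and Sfrp1), with 10.4% of all genes tested in each direction. With an adjusted p under 0.05 and no limit on the fold, 0 Wnt genes were higher and Wnt5a alone was lower, with 0.988% and 1.51% of all genes. DESeq2, which gave Wnt5a no adjusted p, called 0 Wnt genes, with 0.374% of the genes it adjusted called higher and 0.351% lower. At an unadjusted p under 0.05 it gave 1 Wnt gene higher and 4 lower, with 3.21% and 3.66% of all genes. limma on log2(FPKM + 0.1), whose minimum FPKM left Wnt5a out, called 0 of 14817 genes in either direction and so no Wnt gene, and at an unadjusted p under 0.05 it gave 1 Wnt gene higher and 2 lower, with 8.40% and 10.1% of all genes. Of the 39 genes, 36 lay within 1.5-fold of WT by their fitted fold change. Their median log2 fold change was 0.03, beside -0.0039 over all genes tested. The Haspin-KO libraries both lay above the WT libraries for 7 of them and both below for 5, where 25.3% and 26.9% of all genes tested did so.

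**Figure D1:**
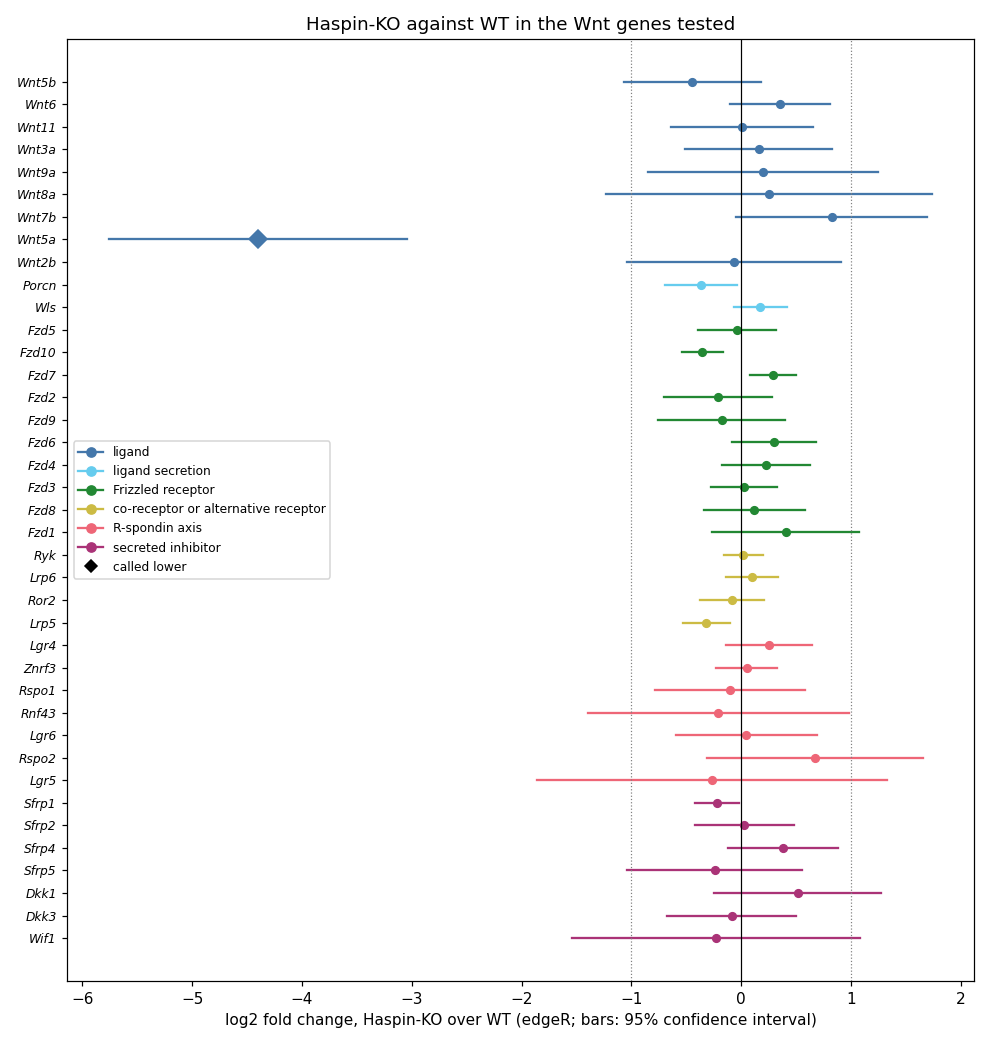
Log2 fold change of each tested Wnt gene, Haspin-KO over WT, on the horizontal axis, with the genes on the vertical axis grouped by role. Points are edgeR estimates, bars are 95% confidence intervals, dotted lines mark a 2-fold change, and the diamond marks the called gene. Wnt5a lies at -4.40 and the other 38 genes between -0.44 and 0.83. Wnt5a was the only gene shown that passed the filter on low counts through WT alone, so its value had to be negative.

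The other 16 Wnt genes were too low to test, with at most 17 counts in any library and an FPKM of at most 0.48. Wnt1 had no count in any library, and Wnt9b, Rspo4 and Dkk4 were at the floor in all 4 libraries. For 7 genes only the Haspin-KO libraries were both at the floor. Apart from Wnt5a these were Wnt2, Wnt8b, Wnt10b, Wnt16, Rspo3 and Dkk2, which had at most 7 counts in a WT library, so a difference was not detectable at this depth. Above the floor were 49 and 45 Wnt genes in WT and 44 and 39 in Haspin-KO. Over the 55401 genes in the table these numbers were 18854 and 18109 in WT and 18151 and 17768 in Haspin-KO. After all libraries were thinned at random to the smallest total, the numbers of Wnt genes were 46, 43, 44 and 39.

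**Figure D2:**
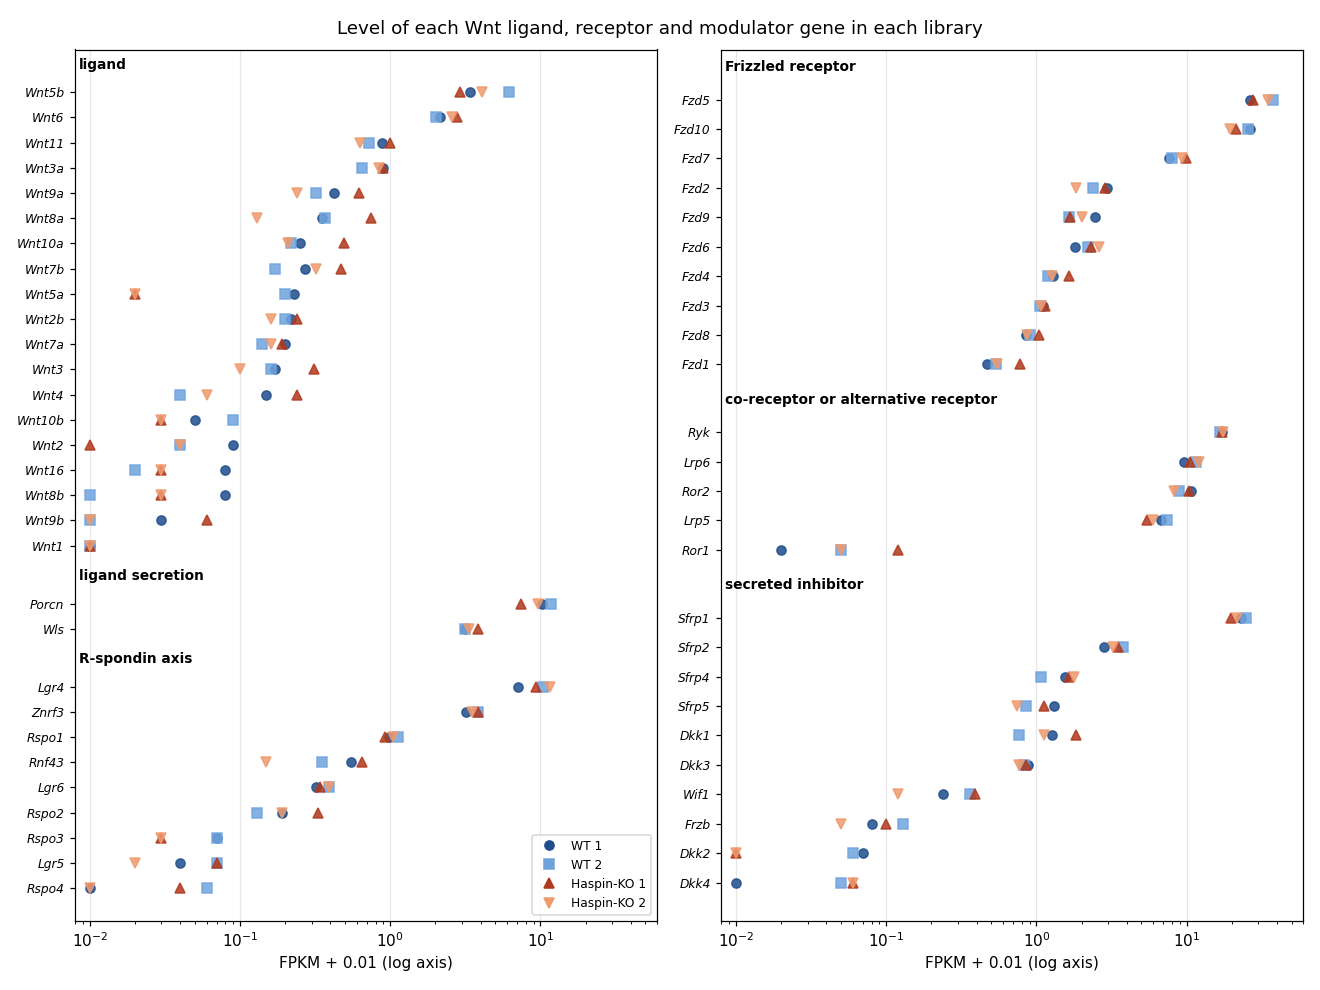
Level of each of the 55 Wnt genes in each library as FPKM + 0.01 on a log axis, with genes on the vertical axis grouped by role and ordered by WT level. Each point is 1 library, blue for WT and red or orange for Haspin-KO. Most receptors and Porcn lie to the right of nearly all ligands, and the Haspin-KO points of Wnt5a lie far left of its WT points.

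In WT cells, several receptors, Sfrp1 and Porcn had the highest levels, and most ligands were low. By mean WT FPKM the order began with Fzd5 (31.9), Fzd10 (25.9), Sfrp1 (24.1), Ryk (17.0) and Porcn (10.98), and down to Porcn each lay apart from the next in its WT range. From Porcn through Lrp6, Ror2, Lgr4 and Fzd7 neighboring ranges overlapped. An FPKM of at least 1 was reached by 24 of the 55 genes, of at least 5 by 10 and of at least 10 by 6. Only 2 of the 19 ligands, Wnt5b and Wnt6, reached 1.

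The 19 ligand genes together gave 28.8 and 32.2 CPM in WT and 30.7 and 26.4 CPM in Haspin-KO, so the groups overlapped. Of these genes 9 were tested, 0 were called higher and 1 was called lower, and their median log2 fold change was 0.16. Wnt5b, a ligand best known for β-catenin-independent signaling, led them with 3.40 and 6.13 FPKM in WT and 2.89 and 4.07 in Haspin-KO. Its WT libraries differed more from each other than the groups did, and its log2 fold change of -0.44 did not pass the test (95% confidence interval -1.07 to 0.18, adjusted p = 0.395 from edgeR). Wnt6, a ligand of early extraembryonic and epithelial tissues, had 2.15 and 2.01 FPKM in WT and 2.79 and 2.56 in Haspin-KO. Both Haspin-KO values of Wnt6 were higher than both WT values, at a log2 fold change of 0.36 (adjusted p = 0.347, edgeR).

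Wnt3a, the ligand most used to activate β-catenin signaling, had 53 and 31 counts in WT and 35 and 33 in Haspin-KO, or 0.88, 0.64, 0.89 and 0.83 FPKM. The Haspin-KO libraries of Wnt3a lay near the higher WT library, and its log2 fold change was 0.16 (95% confidence interval -0.51 to 0.83, adjusted p = 0.804 in edgeR). Wnt7b, singled out after its values were seen as the tested ligand with the highest fold change, had 28 and 14 counts in WT and 32 and 22 in Haspin-KO. Its CPM were 1.28 and 0.806 in WT and 2.23 and 1.54 in Haspin-KO, without overlap, and the log2 fold change of 0.83 did not pass the test (interval -0.04 to 1.69, adjusted p = 0.261). Wnt11, Wnt9a, Wnt8a and Wnt2b had log2 fold changes from -0.07 to 0.25 and overlapping groups.

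Wnt5a is the ligand that classically signals through Ror2 and the planar cell polarity branch. It had 38 and 26 counts in the WT libraries and 1 count in each Haspin-KO library. On the CPM scale this was 1.74 and 1.497 in WT and 0.0695 and 0.0699 in Haspin-KO, so both Haspin-KO values lay below the floor and far below both WT values. Set against the floor of 3 counts per library, the WT level was at least 7.73-fold higher. In the fit, the log2 fold change was -4.40 (SE 0.60, 95% confidence interval -5.76 to -3.05), with an adjusted p of 0.00789 from edgeR with Benjamini-Hochberg adjustment over all genes tested. The fitted value depends on the prior count, since Haspin-KO is under the floor. The study reported less Wnt5a in Haspin-KO cells by qRT-PCR and western blotting, and its return after Haspin-eGFP was expressed. By qRT-PCR it also reported less Wnt5a in WT cells given the Haspin inhibitor CHR-6494, and no change of Wnt3a in Haspin-KO cells.

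The level of Wnt5a in WT was low. Its FPKM was 0.22 and 0.19, place 9 among the 19 ligands, and 0.01 in both Haspin-KO libraries, place 18. Its WT range overlapped those of Wnt7b, just above it, and Wnt2b, just below. Wnt5a was also the only Wnt gene that passed the filter on low counts (a CPM of 0.627 in 2 libraries) through 1 group, WT, whereas 34 genes passed it in all 4 libraries. A gene admitted in that way had to be lower in the other group. With no filter Wnt5a was also called lower, at a log2 fold change of -4.43 (adjusted p = 1.74e-06, edgeR). Without WT replicate 1 the adjusted p of Wnt5a was 0.0791, and without WT replicate 2 it was 0.0551, so the call was lost in edgeR when either WT library was left out and the remaining WT library was assumed to vary like the Haspin-KO libraries. Without Haspin-KO replicate 1 or 2 it was 0.000569 or 0.00223, and over all 4 the log2 fold change ranged from -4.50 to -4.28. DESeq2 gave Wnt5a a log2 fold change of -4.54 and an unadjusted p of 0.000366, but no adjusted p.

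Most fibroblast markers were also lower in Haspin-KO, and their part in the Wnt5a result was not tested. Summed over 25 markers, the level was 349 and 263 CPM in WT and 81.9 and 77.2 CPM in Haspin-KO, with 1 and 2 markers at 0 in WT and 7 and 8 in Haspin-KO. Above the floor were 22 and 21 of the 25 in WT and 13 and 12 in Haspin-KO. Of the 10 defining markers, which summed to 111 and 84.8 CPM in WT and 11.9 and 9.72 CPM in Haspin-KO, 7 were tested and 5 were called lower. Of the 15 further markers 12 were tested and 7 were called lower, and 0 of either list were called higher. Over all genes tested, 0.501% were called lower. A marker that passed the filter through WT alone had to be lower in Haspin-KO. With at least 10 counts required in every library, 3 defining and 6 further markers were tested, and 1 of each list was called lower. DESeq2 called 4 and 5 lower, and both limma fits called 0 of all genes. Lum was at 0 in every library, and Dcn, Postn and Twist2 were at 0 in both Haspin-KO libraries. Between the WT libraries the marker sum of replicate 1 was 1.32 times that of replicate 2, and Wnt5a was 1.16 times. The Wnt5a ratio came from 38 and 26 counts, too few to compare it with the marker ratio. Of the 43 Wnt genes with at least 10 counts in a WT library, 24 were higher in replicate 1. In bulk RNA, fewer cells of a type and less RNA per cell cannot be told apart.

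**Figure D3:**
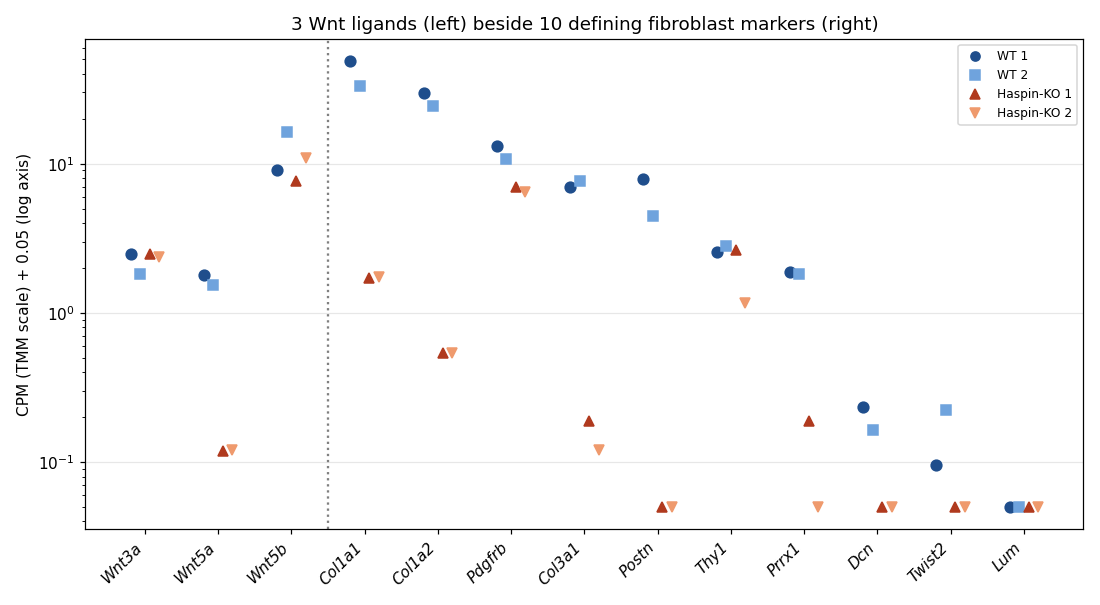
CPM on the TMM scale plus 0.05, on a log axis, of Wnt3a, Wnt5a and Wnt5b (left of the dotted line) and of the 10 defining fibroblast markers (right), 1 point per library. Wnt5a and most markers are lower in both Haspin-KO libraries than in both WT libraries, whereas the Haspin-KO points of Wnt3a and Wnt5b lie among or near their WT points.

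Wnt5a (ENSMUSG00000021994) lies on the plus strand of chromosome 14 of mm10, from 28504750 to 28527448. Opposite to it lies Gm2670, which overlaps 4.58% of the exonic bases of Wnt5a and had 1 and 2 counts in WT and 0 in both Haspin-KO libraries. No source says that the counting used strand, so reads on the shared bases cannot be assigned to one of them. The study's Wnt5a siRNAs and qPCR primers for the transcript are shown because they mark which stretch of this low transcript the knockdown and the qPCR read. These 4 sequences matched the coding sequence of the GENCODE transcript on GRCm38, at chr14:28513354-28513372 for siRNA-1, chr14:28518509-28518527 for siRNA-2, chr14:28513211-28513231 for the forward qPCR primer and chr14:28513265-28513287 for the reverse qPCR primer, which is complementary to the transcript. The siRNA lines give the target sequence in the sense of the transcript.
Wnt5a siRNA-1: ggacaatacttctgtcttt
Wnt5a siRNA-2: ccacgctaagggttcctat
Wnt5a qPCR forward: caactggcaggactttctcaa
Wnt5a qPCR reverse: ccttctccaatgtactgcatgtg

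Wnt5b was the ligand nearest to Wnt5a in sequence. Their coding sequences were 78.4% identical over 1109 aligned bases, the highest of 171 ligand pairs. In Haspin-KO, Wnt5a was at the floor, whereas Wnt5b had 109 and 156 counts. The TCF/LEF core CTTTGAT, the motif through which β-catenin partners bind DNA, was looked for on both strands of the RefSeq promoters (GRCm38.p6, 250 bases before to 50 after the start). It was found for 2 of the 36 Wnt genes with a promoter in the table (5.56%), Wnt5b and Wnt11, against 4.29% of 27025 genes. Wnt5a had no promoter in that table, so its promoter was not searched. The windows, at chr6:119449440-119449468 on the minus strand and chr7:98835050-98835078 on the plus strand, are shown with the core, or its reverse complement ATCAAAG, in capitals. A match describes the letters only.
Wnt5b: agtaagtctctCTTTGATctgctccctgt
Wnt11: gacgtgggcggATCAAAGcgacggtccgc

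The genes that make ligands ready for secretion were both well expressed. Porcn, the acyltransferase, had 10.2 and 11.8 FPKM in WT and 7.39 and 9.65 in Haspin-KO. Both Haspin-KO libraries were lower than both WT libraries, with a log2 fold change of -0.37 that did not pass the adjusted test (interval -0.70 to -0.04, adjusted p = 0.200 in edgeR). The change of Porcn was -0.59 without Haspin-KO replicate 2 but -0.17 without Haspin-KO replicate 1. It was -0.47 without WT replicate 1 and -0.26 without WT replicate 2. Wls, the carrier, had 3.16 and 3.15 FPKM in WT and 3.81 and 3.35 in Haspin-KO, the opposite order, at a log2 fold change of 0.18 (adjusted p = 0.381).

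All 10 Frizzled receptors were tested and above the floor in every library. Their sum was 358 and 431 CPM in WT and 361 and 403 CPM in Haspin-KO, and 0 were called, with log2 fold changes from -0.35 to 0.41 and a median of 0.07. Fzd5, the receptor with the highest level of all the Wnt genes, gave 37.1% and 46.3% of the Frizzled FPKM in WT and 39.4% and 47.2% in Haspin-KO. It had 26.5 and 37.3 FPKM in WT and 27.6 and 34.7 in Haspin-KO, so that replicate 2 was the higher library in both groups and the groups overlapped (log2 fold change -0.04, adjusted p = 0.927). Of its exonic bases 17.8% overlap the antisense gene Gm38058, which had at most 18 counts in a library.

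Fzd10, the receptor next in level, had 26.4 and 25.5 FPKM in WT and 21.3 and 19.5 in Haspin-KO. The libraries of each group lay close together and the groups did not overlap, and its log2 fold change of -0.35 (SE 0.08, 95% confidence interval -0.54 to -0.17) had an adjusted p of 0.0588 in edgeR. The change of Fzd10 was -0.40 without Haspin-KO replicate 1 and -0.31 without Haspin-KO replicate 2. It was -0.34 without WT replicate 1 and -0.37 without WT replicate 2. Fzd7, the Frizzled receptor tied to self-renewal of pluripotent cells, had 7.63 and 7.99 FPKM in WT and 9.92 and 9.26 in Haspin-KO. It was the only Wnt gene higher in Haspin-KO at an unadjusted p under 0.05, with a log2 fold change of 0.29 (interval 0.08 to 0.50, adjusted p = 0.126 from edgeR). The other 7 Frizzled genes, Fzd1 to Fzd4, Fzd6, Fzd8 and Fzd9, ranged from 0.46 to 2.96 FPKM over the 4 libraries and had adjusted p from 0.341 to 0.934.

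The co-receptors and alternative receptors had summed levels of 321 and 344 CPM in WT, and 316 and 340 CPM in Haspin-KO. Ryk, a Wnt-binding receptor without an active kinase, varied little, with 17.2 and 16.7 FPKM in WT and 17.1 and 17.5 in Haspin-KO (log2 fold change 0.02, interval -0.16 to 0.20). Lrp6, a β-catenin co-receptor, had 9.65 and 11.5 FPKM in WT and 10.6 and 12.04 in Haspin-KO, with overlapping groups (log2 fold change 0.10, adjusted p = 0.642). Its partner Lrp5 had 6.76 and 7.38 FPKM in WT and 5.44 and 5.93 in Haspin-KO. For Lrp5 both Haspin-KO libraries lay below both WT libraries, and the log2 fold change was -0.32 (interval -0.53 to -0.10) with an adjusted p of 0.108 in edgeR, which did not pass. Ror2, the tyrosine kinase receptor of Wnt5a, had 10.7 and 8.89 FPKM in WT and 10.4 and 8.21 in Haspin-KO. Replicate 1 of Ror2 was the higher library in both groups, and the log2 fold change was -0.08 (interval -0.37 to 0.21, adjusted p = 0.766). Ror1, the related receptor, had 1, 4, 9 and 3 counts and was not tested.

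The R-spondin axis had summed levels of 75.8 and 101 CPM in WT, against 94.5 and 103 CPM in Haspin-KO, and 0 of its 7 tested genes were called. Lgr4, the main R-spondin receptor here, had 7.07 and 10.4 FPKM in WT and 9.27 and 11.6 in Haspin-KO. The groups overlapped because WT replicate 2 lay between the Haspin-KO libraries, and the log2 fold change was 0.26 (adjusted p = 0.438, edgeR). Without WT replicate 1 or 2 it was -0.0086 or 0.56, and without Haspin-KO replicate 1 or 2 it was 0.42 or 0.067. Znrf3, a ligase that removes Frizzled receptors, had 3.21 and 3.85 FPKM in WT and 3.86 and 3.47 in Haspin-KO (log2 fold change 0.05, adjusted p = 0.853). Among the ligands of this axis, Rspo1 was at 0.91 to 1.12 FPKM in every library, and Rspo2, with 20 and 11 counts in WT and 23 and 13 in Haspin-KO, had a log2 fold change of 0.67 (adjusted p = 0.413).

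Rnf43, the other ligase, was singled out after its values were seen. It had 78 and 39 counts in WT and 60 and 13 in Haspin-KO, which were 3.56, 2.25, 4.17 and 0.909 CPM. Haspin-KO replicate 1 was the highest library and Haspin-KO replicate 2 the lowest. The log2 fold change was -0.21 over all libraries (adjusted p = 0.861 in edgeR), 0.50 without Haspin-KO replicate 2 and -1.68 without Haspin-KO replicate 1. In the last case Rnf43 was called lower with an adjusted p of 0.0133, so 1 library decided its value.

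The secreted inhibitors had summed levels of 123 and 130 CPM in WT, against 110 and 118 CPM in Haspin-KO, without overlap, and 0 of the 7 tested were called. Most of each sum was Sfrp1, with 101 and 110 CPM in WT and 85.2 and 95.9 CPM in Haspin-KO. Among the 7 tested, the groups overlapped for 5, Haspin-KO was higher for Sfrp4, and it was lower for Sfrp1. Sfrp1, which binds Wnt ligands, gave from 67.7% to 76.3% of the FPKM of these genes. It had 23.1 and 25.0 FPKM in WT and 19.7 and 21.7 in Haspin-KO, and its log2 fold change of -0.22 (interval -0.42 to -0.02) had an adjusted p of 0.210 in edgeR. The related Sfrp2 had 2.83 and 3.75 FPKM in WT and 3.50 and 3.22 in Haspin-KO, with overlapping groups (log2 fold change 0.03, adjusted p = 0.953). Dkk1, an inhibitor of Lrp5 and Lrp6 and itself a known target of the pathway, had 67 and 32 counts in WT and 63 and 39 in Haspin-KO (log2 fold change 0.52, adjusted p = 0.416). Of the remaining members, Sfrp4, Sfrp5, Dkk3 and Wif1 had log2 fold changes from -0.24 to 0.38, and Frzb, Dkk2 and Dkk4 had at most 7 counts in a library.

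The libraries of the Haspin-KO group differed from each other in the low Wnt genes. Among genes with at least 10 counts in a library of the group, 7 of 40 Wnt genes (17.5%) were over 2-fold higher in Haspin-KO replicate 1 than in replicate 2, and 0 were over 2-fold lower. Over all genes this share was 3.41%, and it was 9.77% over genes with at most 100 counts. The 40 Wnt genes had no such upper limit, so the 17.5% and the 9.77% are not like for like. The 7 genes were Wnt8a (5.97 times, from 18 and 3 counts), Wnt4 (4.64 times, 14 and 3), Rnf43 (4.59 times), Wnt3 and Wif1 (3.23 times each, both 13 and 4), Wnt9a (2.62 times, 29 and 11) and Wnt10a (2.41 times, 17 and 7). Between the WT libraries 1 of 43 Wnt genes (2.33%), Wnt4, differed in this way, with 2.95% of all genes. Without Haspin-KO replicate 2 the median log2 fold change of the Wnt genes tested was 0.19.

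**Figure D4:**
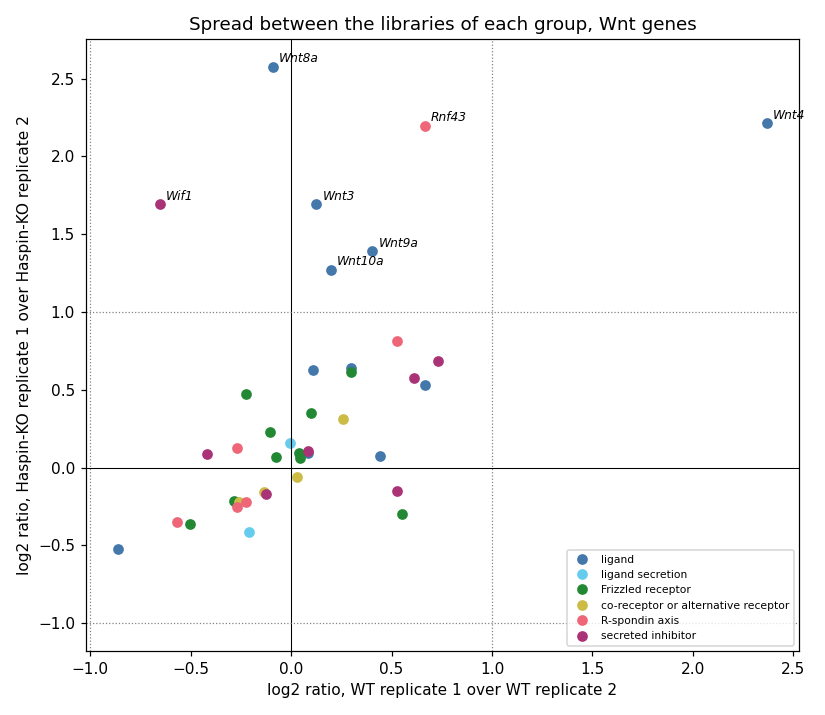
Log2 ratio of replicate 1 to replicate 2 in WT (horizontal axis) and in Haspin-KO (vertical axis) for the 40 Wnt genes with at least 10 counts in a Haspin-KO library, 1 point per gene, colored by role. Dotted lines mark 2-fold. Above the upper line lie 7 genes and below the lower line 0, and only Wnt4 lies beyond 2-fold in WT.

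The rest of the pathway was read from lists of its known parts. Of 26 other extracellular and membrane modulators 20 were tested and 0 were called, and of 35 genes of the β-catenin branch, all tested, 0 were called. In edgeR at an unadjusted p under 0.05 the first list had 0 higher and 1 lower, at a median log2 fold change of -0.022 over the list, and the second had 4 higher and 3 lower, at a median of 0.025. Of 37 genes of the planar cell polarity and calcium branch 33 were tested and 0 were called, with 4 higher and 1 lower at an unadjusted p under 0.05 and a median of 0.063. Over all genes tested in edgeR, 10.4% had an unadjusted p under 0.05 in each direction, and 0.327% were called higher and 0.501% lower. DESeq2 also called 0 genes of these lists. limma called 0 of all genes, so its 0 says nothing about them. In edgeR, Nfatc2, a calcium-regulated transcription factor, had 122 and 89 counts in WT and 143 and 128 in Haspin-KO. Its log2 fold change was 0.82 with an adjusted p of 0.0499 in edgeR, at a fold under 2.

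Of 30 direct targets of the β-catenin branch, 5 of which are themselves among the 55 Wnt genes, 27 were tested. Of those tested, 0 were called higher and 1 was called lower, with 0.327% and 0.501% of all genes tested. The gene called lower was Ccnd2, a D-type cyclin, with 186 and 101 counts in WT and 47 and 41 in Haspin-KO. Both Haspin-KO libraries of Ccnd2 lay below both WT libraries, at a log2 fold change of -1.23 (adjusted p = 0.0388, edgeR). DESeq2 also called Ccnd2 lower (adjusted p = 0.0299). Without WT replicate 1 or 2 the log2 fold change of Ccnd2 was -0.93 or -1.47, and the call was lost in edgeR. Without Haspin-KO replicate 1 or 2 it was -1.325 or -1.144, and the call was kept. In limma on log2(FPKM + 0.1), which called no gene, the adjusted p of Ccnd2 was 0.244. The study also reported less Ccnd2 in Haspin-KO cells by qRT-PCR. Cdx1, a homeobox gene and classical target, had 81.7 and 73.1 CPM in WT and 53.8 and 46.2 CPM in Haspin-KO, a log2 fold change of -0.63 with an adjusted p of 0.0172, under the 2-fold limit. Axin2, a feedback inhibitor listed both as a target and in the β-catenin branch, had 69.3 and 83.6 CPM in WT and 57.1 and 56.8 CPM in Haspin-KO. Both Haspin-KO libraries of Axin2 lay below both WT libraries, and its log2 fold change of -0.42 had an adjusted p of 0.065 in edgeR and 0.0369 in DESeq2, at a fold under 2. Axin2 was singled out after its values were seen. At an unadjusted p under 0.05, edgeR gave 1 direct target higher (Id2) and 4 lower (Ccnd2, Cdx1, Axin2 and T), with 10.4% of all genes tested in each direction. The median log2 fold change of the list was -0.08.

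The study named 3 transcription factors as regulators of Wnt5a, of which 2 were tested here and 0 were called. The study measured less Pax2 in Haspin-KO cells by qRT-PCR and western blotting, and also used reporter and ChIP-qPCR assays. Pax2 had 6 and 2 counts in WT and 3 and 1 in Haspin-KO and was not tested, so a difference was not detectable at this depth. Myb had 55 and 53 counts in WT and 43 and 43 in Haspin-KO (log2 fold change 0.11, adjusted p = 0.845). Foxm1, the most abundant of them, had 2666 and 2288 counts in WT and 1506 and 1748 in Haspin-KO, with overlapping CPM (log2 fold change -0.16, adjusted p = 0.358 in edgeR).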

How the data were processed

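The data were 4 RNA-seq libraries of E14 mESCs, 2 of WT and 2 of Haspin-KO. Reads were trimmed with cutadapt (1.9.1) and aligned to mm10 with HISAT2 (2.0.1), and the study tested genes with DESeq2. The submitters' processing notes also list HTSeq (0.6.1) without its role. The strand setting and the annotation release are not given in the sources used here. The authors deposited raw, unnormalized read counts per gene. FPKM values, deposited beside them, equaled count divided by exonic length and library total within rounding in 100% of the values. Groups were taken from the sample labels.

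The counts were analyzed with edgeR (4.0.16, R 4.3.3): filter on low counts, TMM, quasi-likelihood test, no block, Benjamini-Hochberg adjustment over 15580 genes. A call needed a fold change over 2 at an adjusted p under 0.05. The fit had 2 residual degrees of freedom and a prior of 7.42. FPKM served only to order levels and in limma (3.58.1). Alternatives were DESeq2 (1.42.0), other size factors, other filters, limma on log2(FPKM + 0.1) or log2(FPKM + 1) after keeping genes that reached an FPKM of 0.5 in 2 or more libraries, a replicate block, each library left out, random thinning to the smallest total for the numbers of genes above the floor, and adjusted p alone. Scripts were tested on simulated data.

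Values in every library are given for the called genes and those with an adjusted p under 0.05, the 12 genes highest by WT FPKM, Wnt3a and Wnt5a, the first 2 of each role, and the ligand nearest to Wnt5a by sequence. Protein identity was planned for the last and replaced by identity of the coding sequence (GENCODE vM21 on GRCm38), since no protein table was used here. Gene positions were read from the deposited table (mm10). siRNA and primer sequences came from the study's list, whose Wnt5a ChIP-qPCR primers did not match the transcript and are not shown, and promoters from RefSeq. The Wnt genes and all lists were chosen with earlier results of these data known.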

Additional observations from a re-analysis of the deposited data

How the results depend on the processing

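Over all genes, edgeR called 51 higher and 78 lower. DESeq2 called 44 lower, a minimum of 10 counts in every library gave 36 lower, no filter gave 125 higher and 140 lower, and adjusted p alone gave 154 and 236. limma on log2(FPKM + 0.1) called 0 higher and 0 lower (1245 and 1491 at an unadjusted p under 0.05), and so did limma on log2(FPKM + 1), with 0 and 0 (1264 and 1508). With each library left out, the counts ranged from 17 to 157 higher and from 37 to 150 lower. The count of Wnt genes called lower was 0 with DESeq2, which gave Wnt5a no adjusted p, and 0 with the minimum of 10 counts and with both limma fits, whose filters removed Wnt5a. It ranged from 0 to 2 with libraries left out, and the count called higher was 0 in every fit. The median log2 fold change of the Wnt genes tested ranged from -0.022 to 0.19 with libraries left out.

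Fitted with the replicate block, edgeR called 240 genes higher and 167 lower, and the Wnt genes had 0 and 1. At an unadjusted p under 0.05 this edgeR fit gave 2614 of 15580 genes higher and 2654 lower. Of the 39 Wnt genes it gave 6 higher and 6 lower, a share near that of all genes. Same-numbered libraries deviated together with a correlation of 0.289 across 15580 genes, and nothing in the labels says that a number marks a shared preparation. With the block, the adjusted p of Fzd10 was 2.08e-05, of Lrp5 0.000306, of Porcn 0.00146, of Lgr4 0.00491, of Fzd7 0.00585, of Sfrp1 0.00856 and of Wnt5b 0.0178, each at a fold under 2, and that of Wnt5a was 1.74e-08. Outside these genes, the block gave Axin2 an adjusted p of 5.27e-07 and Nfatc2 one of 5.2e-05.

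Of the 19 named log2 fold changes, 1 turned in sign in a fit on all 4 libraries, that of Ryk with no filter (-0.0066). With no filter, Fzd10 and Lrp5 had adjusted p of 0.0113 and 0.0393. With libraries left out, 10 turned in sign: Fzd5 ranged from -0.27 to 0.24, Lgr4 from -0.0086 to 0.56, Lrp6 from -0.032 to 0.23, Ror2 from -0.24 to 0.061, Ryk from -0.014 to 0.055, Sfrp2 from -0.17 to 0.25, Wnt3a from -0.030 to 0.40, Wnt5b from -0.83 to 0.039, Znrf3 from -0.085 to 0.19 and Rnf43 from -1.68 to 0.50. The causes were not tested. With 2 libraries per group and at most 17 counts, the 16 genes not tested allowed no statement on change.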
